A study of Mus musculus with 12 samples.

Results

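Of the 12 arrays of the series, 4 have sample titles that end in 4-10, and these 4 are described here against the 6 arrays whose titles carry no suffix. The choice went by the title alone, whatever miRNA had been transfected. All arrays hold RNA from mouse trigeminal ganglion (TG) neurons that were isolated, plated on laminin-coated coverslips as primary cultures and transfected. The suffix 4-10 set holds scramble 1, scramble 2, miR-34a 1 and miR-34a 2. The set without a suffix holds miR-21 1, 2 and 3, miR-34a 3, miR-324 1 and miR-324 4. The titles of 2 further arrays, miR-324 2 and a second array called scramble 1, end in 3-11, and their values stand beside the others without entering the main comparison. The labels do not say what 4-10 or 3-11 stands for, nor the age or sex of the animals, whether ganglia were pooled, or whether arrays came from separate cultures, so each p-value reflects the spread among these arrays alone, which may be technical. Scramble was present only in the suffix 4-10 and 3-11 sets, miR-21 only without a suffix, and miR-34a alone was present both with suffix 4-10 (2 arrays) and without a suffix (1 array). The suffix 4-10 and no-suffix sets therefore share miR-34a alone, and only a model that adds the suffix 3-11 arrays links them further, through scramble and miR-324. Outside such models the set and the miRNA cannot be told apart.

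The trigeminal ganglion houses the cell bodies of neurons that carry touch, pain and temperature from the head. Satellite glia wrap these cell bodies, Schwann cells wrap the axons, and resident macrophages, vessels and a collagen-rich capsule lie between them, so a dissociated ganglion culture can carry all of these cells beside the neurons. MicroRNAs lower the output of messenger RNAs by pairing through their seed, the bases next to the 5′ end. The sequences below are the mature forms of the transfected miRNAs, shown because only miR-34a links both sets. They are from the RefSeq table of GRCm38.p6, 5′ to 3′, with the seed (bases 2 to 8) in capitals; both arms are given since the labels do not name the arm.
miR-34a-5p (chr4:150068473-150068494, plus strand): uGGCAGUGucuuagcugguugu
miR-34a-3p (chr4:150068517-150068537, plus strand): aAUCAGCAaguauacugcccu
miR-21a-5p (chr11:86584120-86584141, minus strand): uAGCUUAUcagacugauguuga
miR-21a-3p (chr11:86584082-86584103, minus strand): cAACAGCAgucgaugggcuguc
miR-324-5p (chr11:70012060-70012082, plus strand): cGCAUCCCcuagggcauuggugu
miR-324-3p (chr11:70012095-70012114, plus strand): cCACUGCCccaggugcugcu
No seed is shared among the 6 sequences.

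The values are log2 signals of Clariom S Mouse arrays, whose probe sets, nearly always 1 for a gene, are called probes here. Array medians ran between 5.91 and 6.06. The 1414 probes for olfactory and vomeronasal receptors, which a ganglion culture is not known to need, had array medians between 3.51 and 4.12, and values near there are at the floor. The 4 suffix 4-10 arrays were close to each other. Pearson's r over all named probes, which are not independent replicates, lay between 0.992 and 0.994 for pairs within the suffix 4-10 set, and scramble correlated with miR-34a there as highly (0.993 to 0.994) as arrays of the same miRNA did (0.992 to 0.994). Pairs within the no-suffix set gave 0.962 to 0.991, and pairs across the sets gave 0.943 to 0.977. The miR-34a 1 and 2 arrays correlated with miR-34a 3, which carried the same miRNA without the suffix, at 0.951 to 0.952. The range over the arrays exceeded 1 on the log2 scale for 6.35% of probes in the suffix 4-10 set and for 51.6% in the no-suffix set.

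The no-suffix set was itself of several kinds, which touches every result below. Its miR-324 4 array correlated with the 2 suffix 3-11 arrays at 0.986 and with its own set at 0.963 to 0.975. Prl, the pituitary hormone prolactin, stood at 14.98 and 15.17 in miR-324 1 and 4 and at 14.26 and 14.92 in the suffix 3-11 arrays, against 3.37 to 4.83 in the other 8 arrays. The trio of miR-21 arrays shared high levels of the cell cycle genes described further on. MiR-34a 3 and miR-324 1 had the lowest medians of neuronal genes, at 9.86 and 10.05.

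Between the sets, 1667 probes were higher in the suffix 4-10 set (8.52% of the 19572 named probes) and 1394 were lower (7.12%) at a Benjamini-Hochberg adjusted p under 0.05 in limma, the threshold for every call here. The median difference over all named probes, suffix 4-10 minus no suffix, was -0.15. Without overlap between the arrays of the sets, 1569 probes were higher (8.02%) and 1511 were lower (7.72%). The rises were larger than the falls. A rise of at least 2-fold was called for 1139 probes and a fall of that size for 466, and 37 rises against 5 falls reached 16-fold. Centring every array on its own median gave 1555 higher and 2145 lower. Leaving out scramble 2 or miR-34a 1 left 995 and 1088 probes higher, and leaving out scramble 1, scramble 2, miR-34a 1 or miR-34a 2 left 642, 729, 701 and 658 probes lower.

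**Figure D1:**
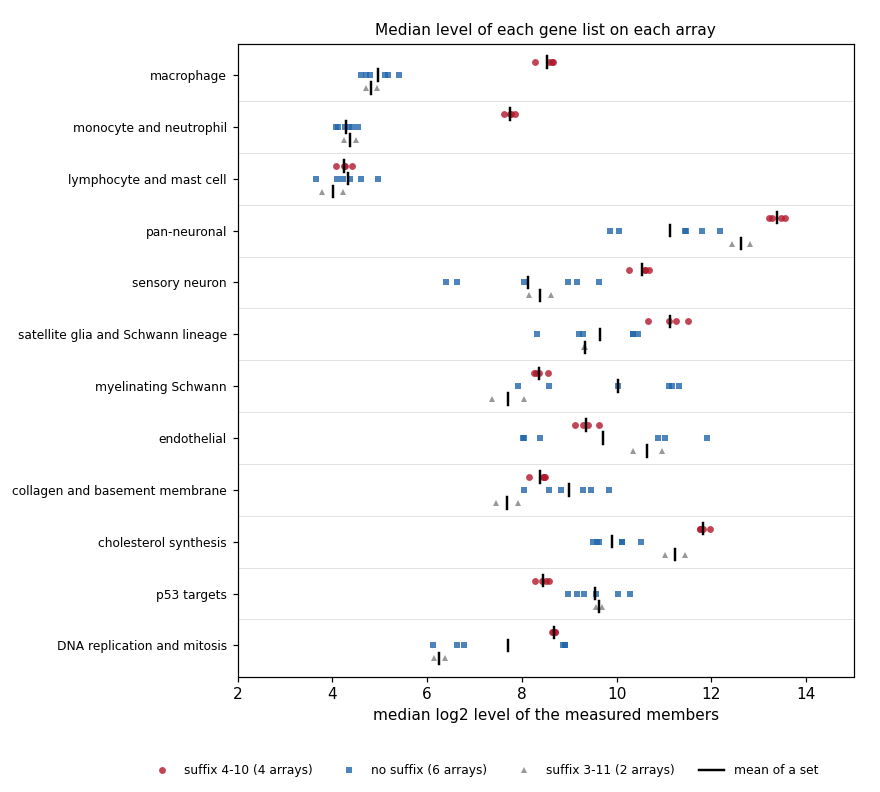
Median log2 level of the measured members of 12 gene lists (rows) on each array: circles, the 4 suffix 4-10 arrays, squares, the 6 no-suffix arrays, triangles, the 2 suffix 3-11 arrays, with a black line at the mean of each set. Macrophage genes of the suffix 4-10 arrays have medians of 8.28 to 8.65, against 4.61 to 5.40 without a suffix, while lymphocyte and mast cell genes overlap between the sets.

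The strongest rises were in genes of the myeloid lineage, the macrophages, monocytes and neutrophils. The 12 largest among called probes whose arrays did not overlap were Lcn2, Ngp, S100a8, Pf4, Lyz2, C1qb, Cd53, Elane, Retnlg, Mpeg1, Lilrb4a and Spi1, with differences of 5.41 to 7.41 on the log2 scale. The choice fixed that their suffix 4-10 arrays lay above the no-suffix arrays. The suffix 3-11 arrays did not enter that choice and were also below all 4 suffix 4-10 arrays in each of the 12 genes. The choice did use those 4 high arrays, and 1321 of the 1667 probes called higher showed the same order. Of 19 measured macrophage genes, 16 rose, none fell and 3 were not called (Cx3cr1, Cd14 and Cd163, chosen for naming after their values were seen), with a median difference of 3.18 beside the -0.15 of all probes. Of 14 measured monocyte and neutrophil genes, 11 rose and none fell, with a median of 2.58. In bulk RNA, more cells of a type and more of their RNA per cell cannot be told apart.

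Genes known from neutrophils, though not all particular to them, led the list. Lcn2, a secreted protein that binds bacterial siderophores, stood at 15.05 in scramble 1, 12.91 in scramble 2, 13.36 in miR-34a 1 and 12.85 in miR-34a 2, against a median of 5.86 in the no-suffix arrays (4.36 to 8.36). Its difference was 7.41 ± 0.73 (SE, adjusted p = 4.79e-05 in limma). The suffix 3-11 arrays lay between the sets, at 10.23 and 9.46. Ngp, which encodes neutrophilic granule protein, had 12.51, 10.13, 11.36 and 9.94 in the same 4 arrays, against a median of 3.80 without a suffix (3.14 to 4.03), a difference of 7.30 ± 0.42. Unlike Lcn2, Ngp was low in the suffix 3-11 arrays, at 4.77 and 3.73. S100a8, a subunit of the calcium-binding protein calprotectin, had 12.81, 9.81, 10.88 and 10.37, against a median of 3.92 (3.19 to 5.72). Elane, neutrophil elastase, had 10.58, 9.44, 9.84 and 9.15, against 3.64 to 4.32, and Retnlg, a resistin-like secreted protein of myeloid cells, had 9.72, 8.93, 9.16 and 8.91, against 3.26 to 3.89. In all 5 genes scramble 1 was the highest of the 4 arrays, and the no-suffix medians of all but Lcn2 were within the range of the receptor probe medians or below it.

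**Figure D2:**
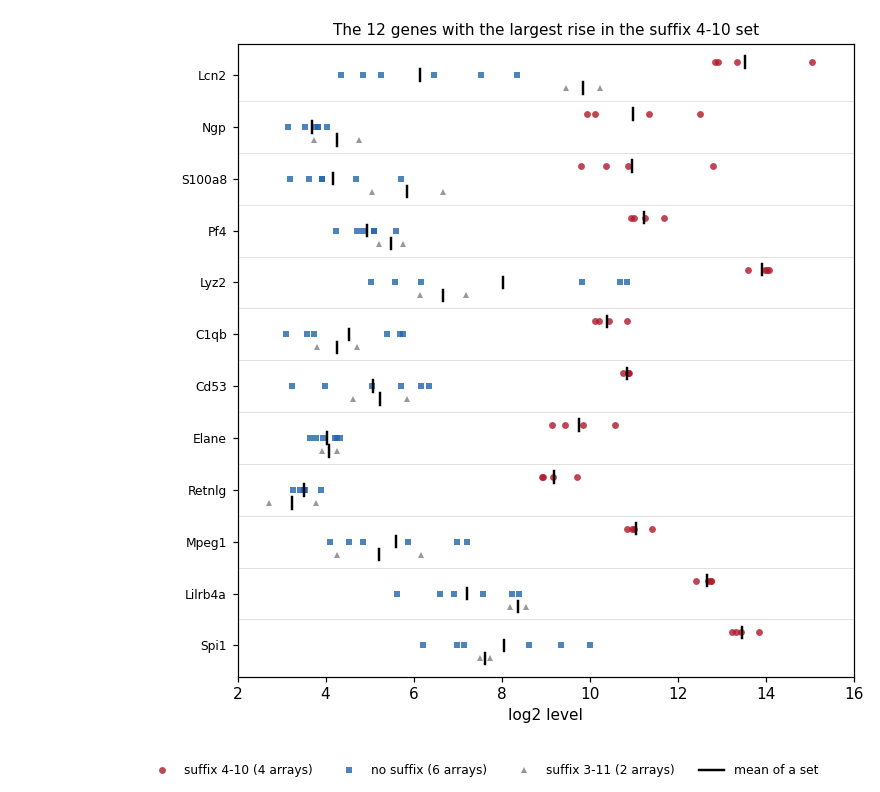
Log2 level (x axis) of the 12 genes with the largest rise (rows, in falling order) on each array: circles, suffix 4-10, squares, no suffix, triangles, suffix 3-11, with a black line at each set's mean. The circles stand to the right of every square, by the choice of genes, and also of every triangle in each row. Lyz2 and Spi1 also show the no-suffix squares spread widely, over 5.03 to 10.85 and 6.22 to 10.00.

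Macrophage genes rose to more even levels. C1qb, a chain of the complement protein C1q that resident macrophages make, had 10.84, 10.43, 10.22 and 10.12 in the suffix 4-10 arrays, against a median of 4.57 without a suffix (3.10 to 5.76), a difference of 5.86 ± 0.51. Csf1r, the receptor for the growth factor on which macrophages depend, had 8.76, 8.64, 9.20 and 8.79, against a median of 5.07 (4.74 to 6.39), a difference of 3.49 ± 0.32 (adjusted p = 2.74e-05). Itgam, the integrin chain CD11b, rose by 5.17 ± 0.35, and Ctss, the lysosomal protease cathepsin S, by 4.64 ± 0.56. Adgre1, which encodes the macrophage antigen F4/80, was higher by 1.16 ± 0.37 (adjusted p = 0.0494), but its arrays overlapped between the sets and the call was lost without any 1 of 8 of the 10 arrays, at 0.81 to 1.35 and adjusted p = 0.0558 to 0.156. Lyz2, lysozyme of macrophages and granulocytes, had 14.08, 13.98, 14.03 and 13.60. In the no-suffix arrays Lyz2 fell into separate levels, 10.69, 9.83 and 10.85 in miR-21 1, 2 and 3 and 5.58, 5.03 and 6.17 in miR-34a 3, miR-324 1 and miR-324 4. Spi1, the transcription factor PU.1 of myeloid cells, showed the same order, with 13.23 to 13.85 in the suffix 4-10 arrays. Its no-suffix values were 8.62 to 10.00 for miR-21 and 6.22 to 7.14 for the other 3 arrays.

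Lists of myeloid function rose in part. Of 21 genes of leukocyte signalling, 14 rose and none fell, among them Cybb, the NADPH oxidase subunit, by 4.09 ± 0.51, and Itgb2, the leukocyte integrin beta chain, by 3.02 ± 0.24. Ptprc, the leukocyte antigen CD45, had 6.97, 6.90, 7.27 and 7.38, against a median of 5.80 (4.87 to 6.61), a smaller rise of 1.46 ± 0.30. Of 16 Toll-like and Fc receptor genes 9 rose and none fell, led by Fcgr3 at 5.03 ± 0.29, an activating receptor for antibody, and Tlr13 at 4.41 ± 0.22, a sensor of bacterial ribosomal RNA, while Tlr2 differed by 0.28 (adjusted p = 0.443). Of 16 complement genes 8 rose and 1 fell (no fall was called without any 1 suffix 4-10 array), with C1qa at 4.75 ± 0.26 and C3ar1, the receptor for C3a, at 4.29 ± 0.20. Of 22 chemokine genes 5 rose and 1 fell. Ccl9, Ccl3 and Ccl6, which draw monocytes and other leukocytes, rose by 4.81, 3.61 and 3.02, and Ccl2 differed by 0.46 (adjusted p = 0.421).

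Phagocyte and antigen presentation genes did not move as a block. Of 21 lysosome and lipid-loaded phagocyte genes, 7 rose and 3 fell. The scavenger receptors Cd36 and Msr1 rose by 5.11 ± 0.62 and 4.10 ± 0.28. Lgals3, which encodes the sugar-binding protein galectin-3 of macrophages and many other cells, went the other way, with 13.48, 13.77, 13.18 and 13.15 in the suffix 4-10 arrays and a median of 15.96 without a suffix (14.82 to 16.42), a difference of -2.50 ± 0.28. Of 9 MHC class II genes 3 rose. Of 11 MHC class I genes none was called, but 7 were lower without the miR-21 arrays (median -1.02) and 4 higher against the miR-21 arrays alone (median 0.44). Over all 19572 named probes, 1881 were lower and 2208 higher without the miR-21 arrays. Against the miR-21 arrays alone 2224 were lower and 2003 higher. H2-Aa and H2-Ab1, chains of a class II molecule, differed by 0.44 and 0.74 (adjusted p = 0.266 and 0.0555). Of 15 lymphocyte and mast cell genes 2 rose (Cd79a and Cpa3), with a median of 0.04, and without scramble 1 or without miR-34a 2 neither was called. The T cell receptor chains Cd3e and Cd3d had 3.03 to 4.62 and 2.83 to 3.90 in the suffix 4-10 arrays, which is at the floor, and 3.27 to 3.77 and 2.86 to 4.58 without a suffix.

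The windows below lie before the start sites of 4 of the largest rises and of the sterol gene Hmgcs1, and are shown because genes of these lists moved together. Only genes whose window held a motif could be shown, so the match in each printed window was fixed by the choice. The windows are from the RefSeq table of GRCm38.p6, written 5′ to 3′ on the gene's strand, each 120 bases long, with the matched motif in capitals. Motifs were searched on both strands in the 250 bases before each listed start: GAGGAAGT for PU.1, TTGCNNAA for the C/EBP family and TCACNCCAC for the sterol factor SREBP. No motif contains another.
S100a8 (chr3:90668843-90668962, plus strand, PU.1): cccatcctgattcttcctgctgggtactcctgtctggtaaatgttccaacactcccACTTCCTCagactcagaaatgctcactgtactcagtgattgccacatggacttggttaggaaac
Pf4 (chr5:90772315-90772434, plus strand, PU.1): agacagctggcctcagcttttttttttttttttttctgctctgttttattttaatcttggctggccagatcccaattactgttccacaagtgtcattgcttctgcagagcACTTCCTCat
Lcn2 (chr2:32387870-32387989, minus strand, C/EBP): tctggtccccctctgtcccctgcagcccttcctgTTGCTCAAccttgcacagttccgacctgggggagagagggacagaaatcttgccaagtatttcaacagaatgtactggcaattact
Ngp (chr9:110419688-110419807, plus strand, C/EBP): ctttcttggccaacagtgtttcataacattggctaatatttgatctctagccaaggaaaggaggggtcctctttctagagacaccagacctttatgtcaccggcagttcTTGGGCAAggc
Hmgcs1 (chr13:119690159-119690278, plus strand, SREBP): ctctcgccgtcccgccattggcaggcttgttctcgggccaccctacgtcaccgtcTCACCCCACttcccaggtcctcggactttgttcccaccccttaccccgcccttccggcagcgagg
The PU.1 letters began 172 bases before the start in S100a8 and 10 in Pf4, the C/EBP letters 216 bases before it in Lcn2 and 11 in Ngp, and the SREBP letters 137 bases before it in Hmgcs1. The PU.1 letters were in the window of 3 of the 10 largest rises that had an entry and of 2.79% of all 27025 genes in the table. The C/EBP letters were in 4 of those 10 and in 10.8% of all genes. By list, PU.1 letters were in 2 of 14 macrophage genes, 4 of 13 monocyte and neutrophil genes and 2 of 17 leukocyte signalling genes with an entry, and C/EBP letters were in 1, 5 and 0 of them. The SREBP letters were in 1 of the 13 measured sterol genes with an entry and in 1.22% of all genes. A match of letters is not a bound site, and these shares carry no test.

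Neuronal genes were also higher in the suffix 4-10 set. Of 24 measured pan-neuronal genes 20 rose and none fell, with a median difference of 2.25. The array medians of the list were 13.22 to 13.56 in the suffix 4-10 arrays and 9.86 to 12.19 without a suffix. Without scramble 2 the count was 13. Tubb3, the neuronal beta-tubulin, had 14.51, 15.18, 14.87 and 14.80, against a median of 12.59 (10.15 to 13.40), a difference of 2.77 ± 0.54 (adjusted p = 0.00458). Snap25, a protein of synaptic vesicle release, had 16.02, 16.20, 15.85 and 15.73, against a median of 13.97 (12.09 to 14.57), a difference of 2.32 ± 0.44. Neither gene overlapped between the sets. Vsnl1, a neuronal calcium sensor, rose by 3.70 ± 0.54 and Stmn3, a microtubule regulator, by 3.01 ± 0.50.

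**Figure D3:**
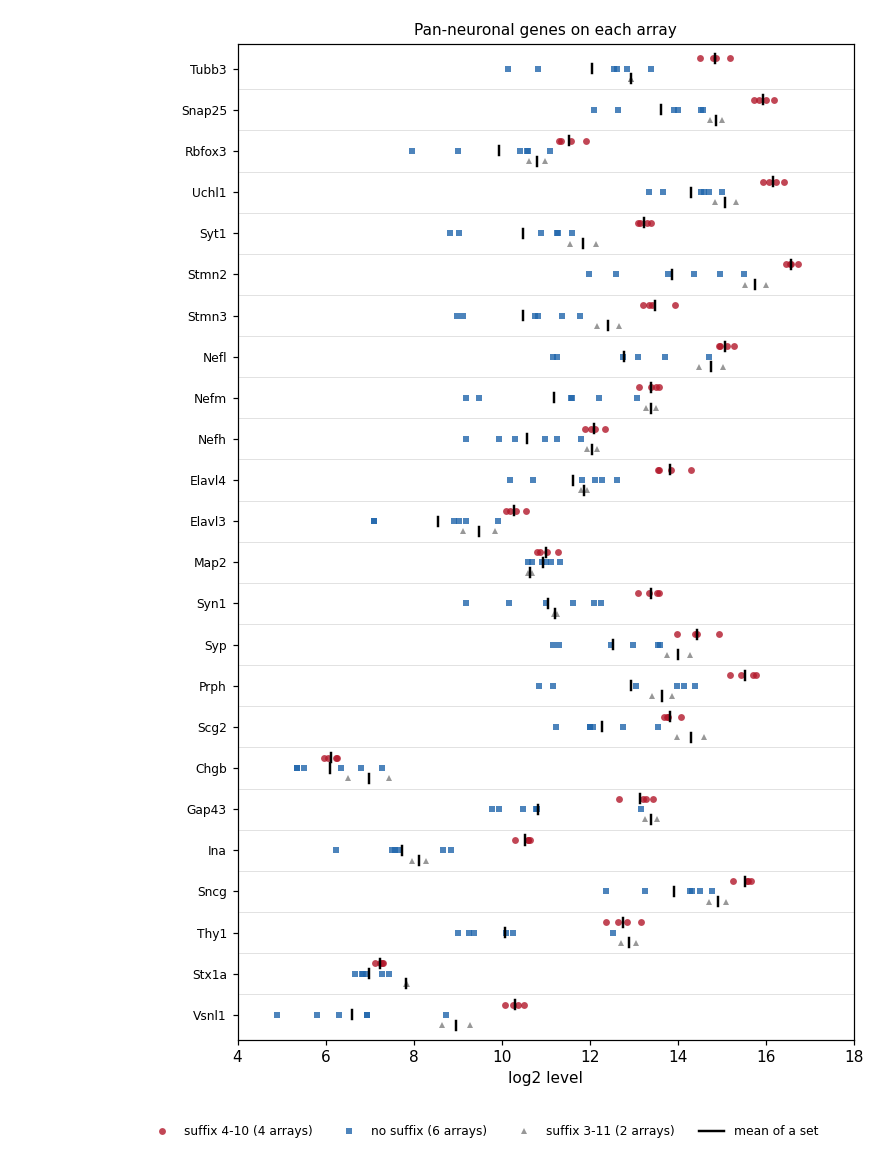
Log2 level (x axis) of the 24 measured pan-neuronal genes (rows) on each array: circles, suffix 4-10, squares, no suffix, triangles, suffix 3-11, with a black line at each set's mean. The lowest squares of Tubb3 and Snap25 are at 10.15 and 12.09, and the triangles of Gap43 at 13.25 and 13.53 overlap its circles at 12.67 to 13.44.

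Genes that give sensory neurons their identity followed the pan-neuronal ones. Of 25 measured sensory neuron genes 18 rose and 1 fell, with a median of 2.16. The fall, of the natriuretic peptide gene Nppb, named after its values were seen, had overlapping arrays (-0.80 ± 0.24, adjusted p = 0.0413) and was not called without scramble 2, miR-34a 1 or miR-34a 2, nor without miR-21 3, miR-34a 3 or miR-324 1. Trpa1, the irritant-gated channel of nociceptors, had 10.25, 10.59, 10.60 and 10.68, against a median of 6.92 (5.07 to 7.21), a difference of 4.07 ± 0.41 (adjusted p = 5.50e-05). Gfra3, the artemin co-receptor of peptidergic nociceptors, rose by 3.84 ± 0.63, and Tac1, the precursor of substance P, by 3.47 ± 0.47. Scn11a, the sodium channel Nav1.9, had 11.67 to 12.23 in the suffix 4-10 arrays. Without a suffix it ranged from 6.40 in miR-324 1 to 10.70 in miR-21 3. Pou4f1 and Isl1, transcription factors of the sensory lineage, rose by 2.23 ± 0.45 and 2.48 ± 0.43.

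Set against the suffix 3-11 arrays, the suffix 4-10 set had higher myeloid genes and some higher sensory neuron genes. This comparison, added after the values were seen, took its spread from all 12 arrays around 3 set means, so the uneven no-suffix arrays entered it. It had 701 probes higher in the suffix 4-10 set than in the suffix 3-11 set (3.58%) and 229 lower (1.17%). The median difference over all probes was -0.015. The 6 arrays compared alone gave 2626 higher and 1394 lower, so an uncalled gene here is not an equal one. Tubb3, at 14.51 to 15.18 against 12.93 and 12.95, was not called (1.90 ± 0.69, adjusted p = 0.132 in limma). Of the 19 macrophage genes 15 were higher, with a median of 3.44, and of the 14 monocyte and neutrophil genes 8 were higher, with a median of 2.20. Of the 24 pan-neuronal genes 1 was higher (Ina, an intermediate filament of neurons, by 2.41), with a median of 0.77 and array medians of 12.44 and 12.81 in the suffix 3-11 arrays. Of the 25 sensory neuron genes 4 were higher, with a median of 1.41, among them Trpa1 by 3.59 ± 0.53 (adjusted p = 0.00163), Gfra3 by 3.96 ± 0.81 and Isl1 by 2.89 ± 0.55. The difference between these lists was not tested. Of the 1667 probes higher than without a suffix, 485 were also called higher than in the suffix 3-11 arrays and 1321 had both suffix 3-11 arrays below all 4 suffix 4-10 arrays. These 1667 were picked for high values in the same 4 arrays, so neither count is separate support. The share of all named probes with that order was not counted. Without miR-324 2 of the suffix 3-11 set the counts were 127 higher and 24 lower, and without its scramble 1 they were 185 and 80.

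The measured genes of cholesterol synthesis and its regulators rose. Cells make cholesterol from acetyl-CoA through the mevalonate and squalene steps, and the SREBP factors switch these genes on together when sterols are short. All 17 measured members of the list, of 21 listed, rose (Srebf2, which encodes an SREBP, and the sterol carrier Stard4 among them, named after their values were seen), all 17 without overlap between the sets, with a median of 1.69. Hmgcs1, which makes HMG-CoA, had 15.18, 15.80, 15.80 and 15.58, against a median of 13.10 without a suffix (12.69 to 14.05), a difference of 2.31 ± 0.30 (adjusted p = 0.000318). Nsdhl, a late enzyme of the route, had 13.66, 14.08, 13.85 and 13.70, against a median of 11.49 (10.51 to 11.95), a difference of 2.44 ± 0.25. Fdft1, squalene synthase, rose by 2.26 ± 0.25, Idi1, an isomerase, by 1.96 ± 0.24 and Sqle, squalene epoxidase, by 1.71 ± 0.30. Insig1, which retains SREBP in the endoplasmic reticulum, differed least clearly, with 11.75, 11.98, 11.75 and 11.91 against a median of 10.52 (9.85 to 11.65), a difference of 1.23 ± 0.32 (adjusted p = 0.0226). Without scramble 1, scramble 2, miR-34a 1 or miR-34a 2 its adjusted p was 0.0555, 0.0693, 0.0555 and 0.0642, at 1.27, 1.19, 1.27 and 1.21. The list's medians were 11.75 to 11.98 in the suffix 4-10 arrays, 9.51 to 10.51 without a suffix and 11.03 and 11.44 in the suffix 3-11 arrays, and 4 of the 17 genes were called higher than in the suffix 3-11 set.

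**Figure D4:**
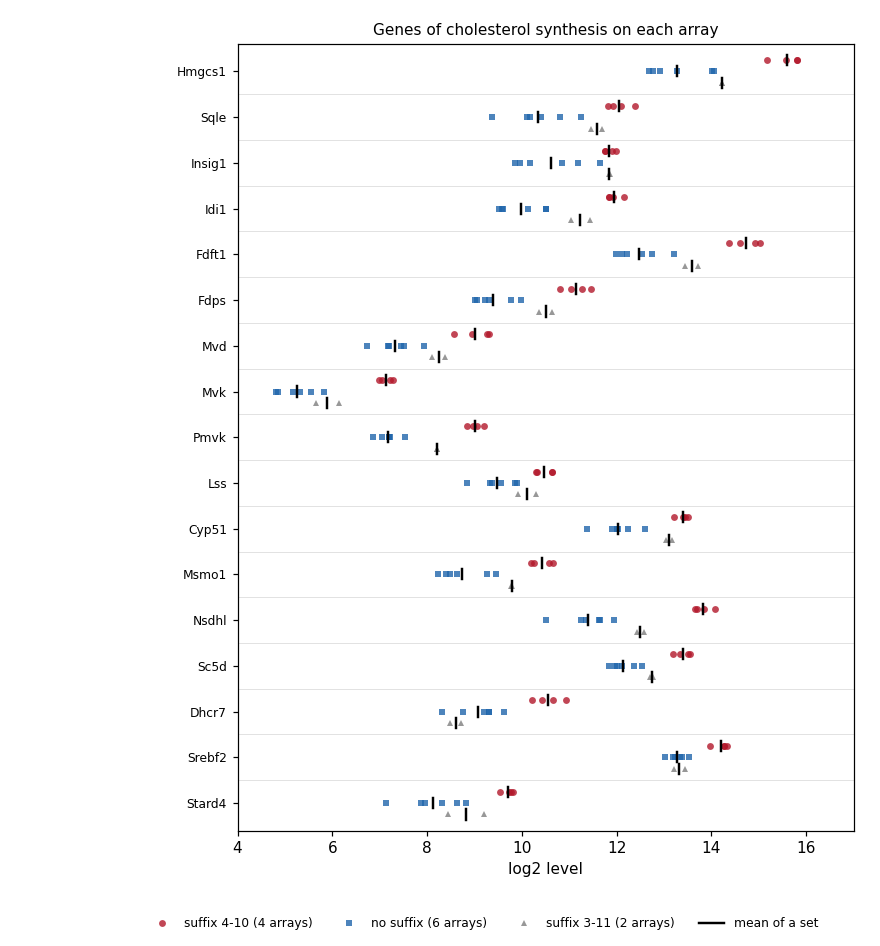
Log2 level (x axis) of the 17 measured genes of cholesterol synthesis (rows) on each array: circles, suffix 4-10, squares, no suffix, triangles, suffix 3-11, with a black line at each set's mean. Every circle lies to the right of every square in its row, and the triangles lie between for most genes, as for Hmgcs1 at 14.23 on both suffix 3-11 arrays.

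Among the falls, genes of the Y chromosome came first. Of 5 measured sex-linked genes 3 fell, none rose and 2 were not called, with a median of -2.985. Eif2s3y, a translation factor gene of the mouse Y chromosome, had 2.93, 2.27, 2.27 and 2.79 in the suffix 4-10 arrays, below the array medians of the receptor probes, against a median of 7.56 without a suffix (5.13 to 8.53). Its difference was -4.72 ± 0.51 (adjusted p = 9.43e-05). Uty and Kdm5d, histone demethylase genes of the Y chromosome, fell by 4.28 and 2.98 on the log2 scale. The suffix 3-11 arrays were as low as the suffix 4-10 arrays, with 2.96 and 2.13 for Eif2s3y. Among the no-suffix arrays miR-324 4 was the lowest for each of these 3 genes. Xist, the transcript of the inactive X chromosome, was not measured here. The level of these 3 Y-linked genes therefore went with the set. Its part in the other differences was not tested, and the labels do not give the sex of the animals.

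Some myelin genes fell too. Of 12 measured genes of myelinating Schwann cells 6 fell and none rose, with a median of -1.27, and 4 fell without any 1 suffix 4-10 array. The list's medians overlapped between the sets, with 8.26 to 8.56 in the suffix 4-10 arrays, 7.91 in miR-324 4, 8.58 in miR-324 1 and 10.03 to 11.33 in the other no-suffix arrays. Against the suffix 3-11 arrays the median difference of the list was 0.49. Mbp, myelin basic protein, had 10.61, 10.95, 10.38 and 10.26, against a median of 14.12 without a suffix (11.26 to 14.60), a difference of -3.02 ± 0.54 (adjusted p = 0.00279), and 11.04 and 9.95 in the suffix 3-11 arrays. Gjb1, a gap junction protein (a connexin) of myelinating Schwann cells, had 5.76, 5.96, 5.76 and 5.19, against a median of 9.55 (8.41 to 10.90), a difference of -3.91 ± 0.37. Bcas1, a gene of myelinating cells, fell by 3.55. For Pmp22, a protein of compact myelin, the difference was 0.67 (adjusted p = 0.338). Of 16 satellite glia and Schwann lineage genes 3 rose and none fell, Fabp7, Kcnj10 and Scn7a, with a median of 0.42. This list turned with the arrays compared. Without the miR-21 arrays 7 rose and none fell (median 0.94), and against the miR-21 arrays alone 3 rose and 6 fell (median -0.53). Over all 19572 named probes 2208 rose and 1881 fell in the former comparison, and 2003 rose and 2224 fell in the latter. Without scramble 2 none of the 16 was called, and without miR-34a 1 or miR-34a 2 only 1 was. Sox10, the transcription factor of the whole glial lineage, had 12.77 to 13.20 in the suffix 4-10 arrays and 12.25 to 14.67 without a suffix (adjusted p = 0.123).

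**Figure D5:**
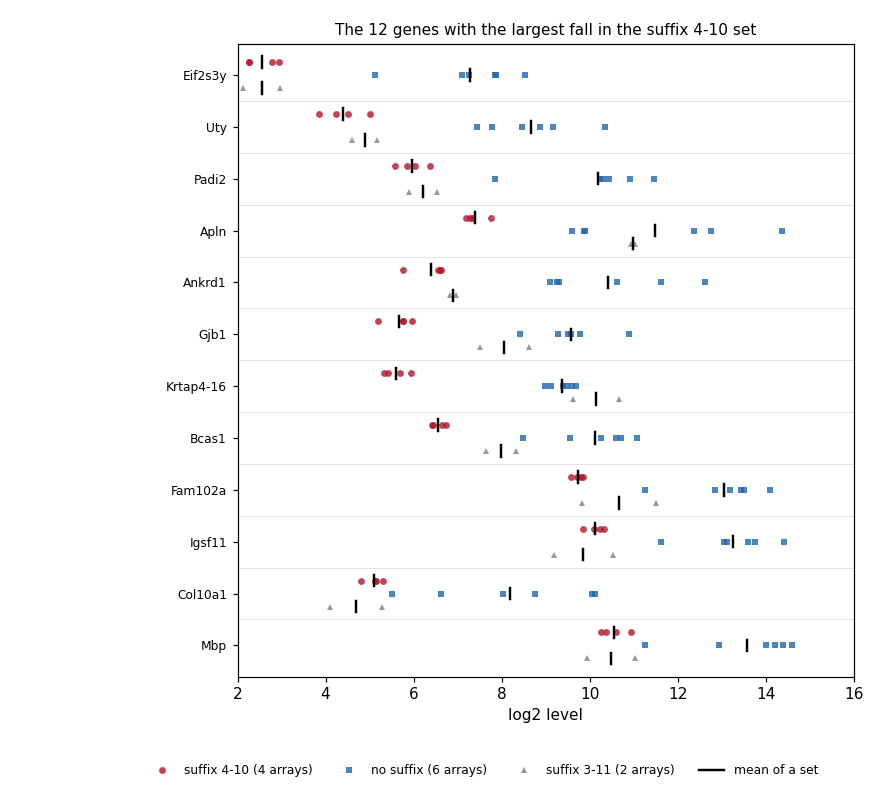
Log2 level (x axis) of the 12 genes with the largest fall (rows, in order of size) on each array: circles, suffix 4-10, squares, no suffix, triangles, suffix 3-11, with a black line at each set's mean. For Eif2s3y, Padi2 and Mbp the triangles lie with the circles, while for Krtap4-16 they lie at 10.66 and 9.63 with the squares.

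The other large falls were of mixed kinds. Padi2, an enzyme that converts arginine to citrulline in proteins, had 5.85, 6.37, 5.58 and 6.04, against a median of 10.37 (7.85 to 11.47). Apln, the ligand of the apelin receptor, had 7.18, 7.29, 7.76 and 7.32, against a median of 11.14 (9.61 to 14.38). Ankrd1, an ankyrin repeat gene that responds to mechanical load, had 6.56, 6.59, 5.76 and 6.63, against a median of 9.96 (9.09 to 12.63). That these 3 genes did not overlap between the sets was a condition of their choice. Krtap4-16, a hair keratin-associated protein gene, had 5.32 to 5.95 in the suffix 4-10 arrays and 8.98 to 9.70 without a suffix, and it was also lower than in the suffix 3-11 arrays, by 4.55 on the log2 scale. Col10a1, a collagen of cartilage, had 4.80 to 5.30, against 5.52 to 10.13, a difference of -3.10 ± 0.76 (adjusted p = 0.017) that was not called without miR-34a 2 (adjusted p = 0.0533). Fam102a and Igsf11, a cell adhesion gene, fell by 3.32 and 3.13.

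Several matrix genes fell, and both the matrix and the endothelial counts depended on which arrays were compared. Of 24 collagen and basement membrane genes 9 fell and none rose, with a median of -0.70. Without the miR-21 arrays 8 fell and 2 rose (median -0.39), and against the miR-21 arrays alone 18 fell (median -0.93). Over all 19572 named probes 1881 fell and 2208 rose in the former comparison, and 2224 fell and 2003 rose in the latter. Against the suffix 3-11 arrays none of the 24 genes was called lower, and their median was 0.10. Hspg2, the heparan sulfate proteoglycan perlecan, had 9.93, 10.14, 10.42 and 10.54, against a median of 13.42 (11.81 to 14.10), a difference of -3.01 ± 0.37 (adjusted p = 0.000236). Its difference from the suffix 3-11 arrays was -0.69 (adjusted p = 0.50 in limma). Col4a2 and Col18a1, collagens of basement membranes, fell by 2.18 and 1.91, and Agrn, the proteoglycan agrin, by 1.87. Of 17 endothelial genes 1 fell, Vwf, a clotting protein of endothelial cells, by 2.40 ± 0.56, and without miR-21 1 or miR-21 2 the falls were 2 and 3. Cdh5, the cadherin of endothelial junctions, had 12.41, 12.28, 12.44 and 12.25 in the suffix 4-10 arrays. Without a suffix miR-21 1, 2 and 3 were near them at 12.94, 12.45 and 13.12, while miR-34a 3, miR-324 1 and miR-324 4 were higher at 15.57, 16.80 and 15.98. The set difference was -2.13 ± 0.76 (adjusted p = 0.0759). The endothelial list had 15 genes lower without the miR-21 arrays, and 5 higher and 1 lower against the miR-21 arrays alone, an alternative added after the values were seen.

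Of 21 p53 target genes 12 fell and none rose, with a median of -0.80. Against the suffix 3-11 arrays 2 of the 21 were called lower, with a median of -0.53. The list's medians were 8.27 to 8.58 in the suffix 4-10 arrays, 8.98 to 10.28 without a suffix and 9.70 and 9.56 in the suffix 3-11 arrays. P53 switches these genes on after DNA damage and other stress, and several arrest the cell cycle. Cdkn1a, the cell cycle inhibitor p21, had 16.74, 16.75, 16.95 and 16.72, against a median of 17.40 without a suffix (17.29 to 17.88), a difference of -0.73 ± 0.17 (adjusted p = 0.0137). Mdm2, the ubiquitin ligase that removes p53, had 13.32, 13.11, 13.08 and 13.16, against a median of 14.52 (14.08 to 15.27), a difference of -1.35 ± 0.22. Phlda3 fell by 1.98 and Tnfrsf10b, a death receptor, by 2.18. In each of these 4 genes the arrays of the sets did not overlap.

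Immediate early genes, which cells switch on within minutes of a stimulus, changed in part. Of 20 measured, 7 fell, 2 rose and 11 were not called. Of the rises, Ier3 was lost without any 1 array other than miR-324 4, at 1.11 to 1.38 (adjusted p = 0.0562 to 0.134). Nr4a2, an orphan nuclear receptor, had 10.15, 10.02, 10.02 and 10.08, against a median of 12.12 (11.63 to 12.37), a difference of -1.96 ± 0.18 (adjusted p = 2.50e-05), and Fos fell by 2.11 ± 0.27. Dusp1, a phosphatase of MAP kinases, rose by 1.34 ± 0.17. Of 23 inflammatory and NF-kB genes 3 rose and 3 fell, with 1 fall left without scramble 2, miR-34a 1 or miR-34a 2. Bcl3, a nuclear IkB protein, rose by 2.63 ± 0.30 and Nfkb2, a subunit of NF-kB, fell by 1.81 ± 0.20. Il6, a cytokine of injured ganglia, had 10.05, 9.83, 10.12 and 10.14, against 4.79 to 6.00 in 5 no-suffix arrays and 10.80 in miR-324 4, and 12.03 and 12.61 in the suffix 3-11 arrays, so it was high in 7 of the 12 arrays. Its difference of 3.77 ± 0.93 (adjusted p = 0.0172) was not called without miR-34a 1 or without miR-34a 2, at 3.74 and 3.73 (adjusted p = 0.0505 and 0.0502).

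Of 26 nerve injury and regeneration genes 12 rose and 3 fell, with a median of 0.79. The list's medians were 9.86 to 10.02 in the suffix 4-10 arrays, 9.89 in miR-324 4, 7.66 to 8.02 in the other 5 no-suffix arrays and 9.93 and 9.96 in the suffix 3-11 arrays, and the count of rises was 6 without scramble 2 or without miR-34a 1. Atf3, the injury-induced transcription factor, differed by 0.40 (adjusted p = 0.181). Of 26 interferon response genes none was called, with array medians of 6.55 to 7.54 in the suffix 4-10 arrays and 5.16 to 10.06 without a suffix. That list had 13 genes lower without the miR-21 arrays (median -1.08) and 16 higher against the miR-21 arrays alone (median 1.29). Over all 19572 named probes 1881 were lower in the former comparison and 2003 were higher in the latter. Irf9, a subunit of the interferon-induced complex ISGF3, differed by 1.39 (adjusted p = 0.115). Among 28 genes of DNA replication and mitosis 1 rose, Mcm3, and none fell. Mcm3, a subunit of the replicative helicase, was not called without scramble 1, at 0.67 (adjusted p = 0.0565). The median of that list was 8.65 to 8.70 in the suffix 4-10 arrays. Without a suffix it was 8.88 to 8.91 for miR-21 and 6.13 to 6.78 for the other 3 arrays. Mki67, the proliferation antigen, had 10.49 to 11.04 in the suffix 4-10 arrays, and without a suffix 12.28 to 12.63 for miR-21 and 6.47 to 8.78 for the other 3.

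Further lists, of other cell types, tissues and functions, ranged from no calls to several. Beside them, 8.52% of all named probes were higher and 7.12% were lower, and whether any list differed from these shares was not tested. Of 12 anterior pituitary genes, 12 skeletal muscle genes, 6 melanocyte genes, 6 lymphatic endothelial genes and 3 erythroid genes none was called. The fitted difference was negative for all 12 pituitary genes (median -0.81), and centring each array gave 2 of them and 5 skeletal muscle genes as lower. Without miR-34a 3, 2 pituitary genes were lower. Of 12 oligodendrocyte and astrocyte genes 1 rose, Aldoc by 2.00, and the oligodendrocyte markers Mog and Mobp had 3.02 to 3.84 and 3.73 to 4.39 in the suffix 4-10 arrays, at the floor. Of 10 epithelial and perineurial genes 1 rose and 3 fell. The riser, Cdh1, which encodes E-cadherin, had 12.99, 13.18, 12.89 and 13.29, against a median of 10.15 (9.08 to 11.89), and Itgb4, an integrin chain, fell by 2.77. Of 17 fibroblast genes 3 rose and 1 fell, of 14 mural cell genes 2 rose and 1 fell, and of 11 adrenergic and sympathetic genes 1 rose. Of 20 hypoxia and glycolysis genes 4 rose and 3 fell, of 23 oxidative phosphorylation genes 2 rose, and of 19 integrated stress response genes 3 rose and 1 fell. Of 18 neuropeptide and hormone genes 6 rose and 2 fell, and of 23 matrix enzyme and matricellular genes 4 rose and 4 fell. These small counts moved with single arrays. The fibroblast rises were 0 without scramble 2 or miR-34a 1, 1 without scramble 1 or miR-34a 2 and 5 without miR-324 4, and the stress response rises were 1 without any 1 suffix 4-10 array. Without the miR-21 arrays 11 fibroblast genes rose and 1 fell, and against the miR-21 arrays alone 5 rose and 6 fell. Over all 19572 named probes 2208 rose and 1881 fell in the former comparison, and 2003 rose and 2224 fell in the latter. The hypoxia rises were 2 without any 1 suffix 4-10 array or miR-324 1. The epithelial falls were 1 without scramble 2 or miR-34a 2, and the matrix enzyme falls were 1 without any 1 suffix 4-10 or miR-21 array.

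Comparing only arrays transfected with miR-34a held the miRNA fixed. Its lone no-suffix array, miR-34a 3, had the lowest medians of the no-suffix set for macrophage and pan-neuronal genes, 4.61 and 9.86. The sizes of the differences of those lists rest on that array. The comparison set miR-34a 1 and 2 against miR-34a 3, with the spread pooled over the 7 combinations of set and miRNA, so the lone array is assumed to vary like the others. It had 1248 probes higher (6.38%) and 870 lower (4.45%). These are other probes in part: 886 of the 1667 higher probes and 434 of the 1394 lower ones were called in the same direction there, where the 2 comparisons share all 3 arrays. With the miRNA as an additive term over the 12 arrays 1519 were higher (7.76%) and 909 lower (4.64%). Within miR-34a, 15 of 19 macrophage genes and 20 of 24 pan-neuronal genes were higher, with medians of 3.62 and 3.61, and 8 of 17 cholesterol synthesis genes were higher, with a median of 1.35. The differences there were 7.07 for C1qb, 8.23 for Lyz2, 5.57 for Trpa1, -6.00 for Eif2s3y and -3.69 for Mbp, all called. These genes had been named for their size in a comparison that holds the same 3 arrays, and the median over all probes within miR-34a was -0.135. For Sqle, Idi1 and Insig1 the difference within miR-34a was 1.84, 1.33 and 0.65 (adjusted p = 0.0717, 0.0656 and 0.334). Col10a1, Il6 and Cdkn1a were not called there either (adjusted p = 0.511, 0.0503 and 0.0587). Of the endothelial genes 14 of 17 were lower within miR-34a, and of the DNA replication and mitosis genes 18 of 28 were higher.

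Reported targets of the transfected miRNAs were called in part. Beside the 8.52% of all probes higher and 7.12% lower, of 24 measured miR-34a targets 2 rose and 1 fell, of 23 miR-21 targets 2 rose and 6 fell, and of 6 miR-324 targets 1 rose and 1 fell. The miR-21 target falls were 3 without any 1 suffix 4-10 array. Against the miR-21 arrays alone 10 of the 23 miR-21 targets were lower and 1 was higher. Of the 24 miR-34a targets 10 were lower and 2 were higher there. In that comparison 2224 of all 19572 named probes were lower and 2003 were higher. Whether the target lists differed from all probes was not tested. Cdk6, a cell cycle kinase reported as a miR-34a target, had 10.20 and 10.20 in scramble 1 and 2 and 10.09 and 10.43 in miR-34a 1 and 2, against 7.08 in miR-34a 3. Arrays without miR-34a were low too, at 8.07 and 8.32 in miR-324 1 and 4 and 8.38 and 8.22 in the suffix 3-11 arrays. The miR-21 arrays had 9.89 to 10.62. Sirt1, a deacetylase reported as a miR-34a target, had 10.73 and 10.98 in scramble 1 and 2 and 11.10 and 10.87 in miR-34a 1 and 2, against 11.74 in miR-34a 3. It was at 11.52 and 11.55 in miR-324 1 and 4, 11.32 and 11.42 in the suffix 3-11 arrays and 10.95 to 11.25 in the miR-21 arrays. Neither gene differed between the sets at the threshold (adjusted p = 0.203 for Cdk6 and 0.15 for Sirt1), and within the suffix 4-10 set the scramble and miR-34a levels of both genes overlapped.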

How the data were processed

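The authors deposited log2 signals for 22206 probes, for which the submitters' processing notes name RMA and Transcriptome Analysis Console 4.0. Since RMA forces 1 signal distribution on all arrays, shifts in total signal are removed, and values at the floor understate differences. A platform table paired 19572 probes with 1 symbol (19505 symbols, all in the RefSeq table of GRCm38.p6); 2634 were unnamed here. Where a symbol had several probes, the brightest over the 10 arrays stood for it in lists. Differences are suffix 4-10 minus no suffix, fitted with limma 3.58.1 in R 4.3.3 (lmFit, eBayes; 8 residual degrees of freedom, two-sided), with Benjamini-Hochberg adjustment over 19572 probes. The script was tested on simulated data. The lists and members were chosen with earlier results of these data known. Named genes were the 12 largest rises and falls called without overlap, per list the first 2 measured members and up to 4 called with the largest difference, and a short list of markers. The number of arrays limits the precision. The main fit did not pair arrays by label number. Across sets, 6 same-numbered pairs had deviations correlating at -0.06 to 0.04 and 18 other pairs at -0.06 to 0.09. So few pairs cannot show whether a number marks a shared preparation. Alternatives were normalization, filters, weights, miRNA terms and left-out arrays.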

Additional observations from a re-analysis of the deposited data

Results flagged for a closer look

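Of 154 sets of values tested, 7 had 1 array far from the rest of its set by Dixon's test, where chance flags about 1 in 20. Cd53, a tetraspanin of leukocytes, was lowest in miR-34a 2 at 10.77, against 10.88 to 10.90 in the other suffix 4-10 arrays. Ankrd1 was lowest in miR-34a 1 at 5.76, against 6.56 to 6.63. The median of the MHC class II list was highest in scramble 2 at 6.22, against 5.50 to 5.56, and the median of the collagen and basement membrane list was lowest in scramble 1 at 8.16, against 8.45 to 8.48. In the no-suffix set Padi2 was lowest in miR-324 4 at 7.85, against 10.24 to 11.47, and the nerve injury and regeneration median was highest in the same array at 9.885, against 7.66 to 8.02. The erythroid median was lowest in miR-21 3 at 3.67, against 4.41 to 4.84, all at or near the floor.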

How the results depend on the processing

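The count of higher probes stayed within 1.5 times of 1667 under every alternative run but the removal of single arrays, which gave 995 to 1760. The count of lower probes, 1394 in the main comparison, was 2145 with each array centred on its median, 2308 with array weights, 909 with the miRNA as an additive term, 870 within miR-34a, 466 at 2-fold or more and 2224 against the miR-21 arrays alone, and 642 to 1734 when single arrays were left out. The label number as a replicate block gave 1354 higher and 1373 lower, and under it Pou4f1, Scn11a, Vwf, Tnfrsf10b and Cdkn1a, among others, were not called and the sensory neuron rises were 8, against 18 without it. Against the suffix 3-11 arrays, the 6 arrays compared alone gave 2626 higher and 1394 lower, quantile normalization gave 401 lower, centring 390 lower, and leaving out single arrays 127 to 393 higher and 24 to 83 lower. No named gene that was called changed sign under any alternative run. The median difference over all probes was -0.07 after quantile normalization and -0.22 after centring, beside -0.15. The alternatives against the miR-21 arrays alone, without miR-34a 3 and miR-324 1, and all those of the suffix 3-11 comparison were chosen after seeing the data. The causes were not tested. Limits: 4 and 6 arrays, the miRNA bound to the set except where arrays share one, and values at the array's floor.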
